A study of Mus musculus with 10 samples.

Results

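Endocytic genes of the synapse were followed in the hippocampus of Dp5/Dp1 mice, a Down syndrome model. The 9 genes were chosen by their role and copy number. No measured value entered the choice, although earlier results of these data were known when it was made. They are Synj1, Synj2, Itsn1, Itsn2, Dnm1, Amph, Bin1, Sh3gl2 and Picalm. Of these, 8 had a probe set assigned to a single gene among the 19938 genes tested, and Picalm was not analysed here. Synj1 and Itsn1 lie in the Dp5Yah duplication of mouse chromosome 16 and are therefore present in 3 copies in Dp5/Dp1 mice. The 6 other genes measured are on other chromosomes and have 2 copies in both groups.

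Each mouse gave 1 array, an Affymetrix Mouse Gene 1.0 ST chip that received total RNA from both hippocampi. The 5 Dp5/Dp1 mice were males of 16 weeks that carried the Dp5Yah and the Dp1Rhr duplications together, on a C57BL/6N background per the labels (C57BL/6J in the study's methods). The 5 controls were wild type male littermates of the same age and background with neither duplication. These same controls, which the labels mark as a reanalysis, were shared with mice that carried Dp5Yah or Dp1Rhr alone and that were not analysed here. The sample titles of the Dp5/Dp1 arrays name Dp5Yah, with the Dp5Dp1 model in brackets, whereas their condition label names both duplications, and the label was followed. The duplications are carried by every cell of the animal, so they are not restricted to neurons or to the hippocampus. Dp5Yah was read as the genes from Cyyr1 to Clic6 (chr16:85452858-92541241, GRCm38), which are gene ends and not breakpoints. Levels are RMA log2 values, on which a step of 1 is a doubling, and group values are means ± SD over 5 arrays. Differences are Dp5/Dp1 minus control on this log2 scale with their standard error (SE), and "called" means a limma adjusted p under 0.05 over all genes.

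A synaptic vesicle that has fused with the plasma membrane is retrieved by endocytosis. Clathrin and its adaptors, among them PICALM, build a coat on a patch of membrane rich in phosphorylated phosphoinositides. Curved BAR domain proteins such as amphiphysin (Amph), amphiphysin II (Bin1) and endophilin A (Sh3gl2) shape the neck of the bud and bring in dynamin (Dnm1), a GTPase that cuts it. Synaptojanin 1 (Synj1) then removes phosphates from the phosphoinositides, so that the coat is shed. Intersectin 1 (Itsn1) is a scaffold that holds several of these proteins at the site and activates CDC42, a small GTPase of the actin cytoskeleton. Synj2 and Itsn2 are their paralogues.

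The promoters of Synj1 and Itsn1 are shown because both genes, each in 3 copies, were called higher in the comparison that follows. Both are RefSeq windows of 300 bases on GRCm38.p6, from 250 bases before a start site to 50 after it, written 5′ to 3′ on the strand of the gene. Capitals mark GC boxes (GGGCGG or its reverse CCGCCC). The Synj1 window is chr16:91011046-91011345 on the minus strand, the more downstream of 2 start sites that RefSeq lists, and the Itsn1 window is chr16:91729121-91729420 on the plus strand.
Synj1: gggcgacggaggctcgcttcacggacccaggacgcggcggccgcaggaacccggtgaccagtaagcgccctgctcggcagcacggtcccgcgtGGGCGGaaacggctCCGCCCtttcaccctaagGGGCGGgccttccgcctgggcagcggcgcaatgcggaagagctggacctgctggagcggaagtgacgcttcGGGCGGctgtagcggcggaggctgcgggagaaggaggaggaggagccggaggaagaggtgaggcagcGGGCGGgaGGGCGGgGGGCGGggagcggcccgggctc
Itsn1: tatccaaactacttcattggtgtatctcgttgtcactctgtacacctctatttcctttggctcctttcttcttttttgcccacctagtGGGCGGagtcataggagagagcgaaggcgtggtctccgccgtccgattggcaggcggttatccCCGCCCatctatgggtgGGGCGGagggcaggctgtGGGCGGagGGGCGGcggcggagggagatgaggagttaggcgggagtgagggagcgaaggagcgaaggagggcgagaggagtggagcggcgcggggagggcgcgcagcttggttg
The Synj1 window held 7 GC boxes and the Itsn1 window 5, and no motif match in them overlapped another. The other Synj1 window, chr16:91011259-91011558, held 0. At least 1 GC box was found in 35.7% of the 32851 promoter windows of the same length, a share of windows and not a count of boxes. The GC content was 74.0% in the Synj1 window shown, 71.3% in the other Synj1 window and 61.7% in the Itsn1 window. The median over all windows was 52.7%. The CCAAT box (CCAAT or ATTGG) was found 2 times in the Itsn1 window, 0 times in both Synj1 windows and in 37.4% of all windows. The core of a CRE (TGACG or CGTCA), found in 20.8% of all windows, occurred 1 time in the Synj1 window shown and 0 times in that of Itsn1. Neither gene had a TATA box (TATAAA or TTTATA, 13.6% of all windows) or the E-box CACGTG (7.15%) in these windows. Among the 2-copy paralogues, the Itsn2 window held 3 GC boxes and both Synj2 windows 0. The start sites are those of single RefSeq transcripts and lie inside the outermost gene ends given here, farthest for Synj2, whose windows are not at the 5′ end of the gene. These are matches of letters and not measured binding sites. RefSeq windows were found for 8 of the 9 genes.

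Synj1 and Itsn1 were overexpressed in Dp5/Dp1 hippocampi, and no 2-copy gene of the set was called. limma called 2 of the 8 measured genes, both higher, against 0.206% of all genes called in either direction and 0.201% called higher. In both, the groups did not overlap, all 5 Dp5/Dp1 arrays lying above all controls, which held in this direction for 0.762% of all genes. By FCROS, a rank method that the study used, the same 2 of the 8 passed, as did 5.06% of all genes. As run here, FCROS cuts a fixed tail at each end of the ranks, so a share near this one passes in almost any data.

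Synj1 (chr16:90936092-91013727) was at 11.90, 11.99, 11.91, 12.05 and 11.89 in Dp5/Dp1 replicates 1 to 5, and at 11.59, 11.71, 11.56, 11.55 and 11.55 in control replicates 1 to 5. The lowest Dp5/Dp1 array exceeded the highest control, replicate 2, which itself lay apart from the other 4 controls. The means were 11.95 ± 0.07 in Dp5/Dp1 and 11.59 ± 0.07 in controls, a log2 difference of 0.36 ± 0.04 (SE; 1.28-fold, 95% interval 1.20 to 1.37; limma adjusted p = 0.0034). The interval lay below the 1.5-fold that 3 copies against 2 would give in proportion. It did so too for 45 of the 54 Dp5Yah genes read below. Whether the array scale lowers such differences was not tested. Synj1 ranked 18th of all genes by unadjusted p. In RNA of a whole tissue, a change in the number of cells of a type and a change in RNA per cell cannot be told apart, in either direction.

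Itsn1 (chr16:91729310-91920591) was at 10.68, 10.76, 10.67, 10.79 and 10.69 in Dp5/Dp1 replicates 1 to 5, and at 10.26, 10.41, 10.45, 10.45 and 10.40 in control replicates 1 to 5. The Dp5/Dp1 arrays lay close together above all controls, of which replicate 1 was the lowest. The means were 10.72 ± 0.05 in Dp5/Dp1 and 10.39 ± 0.08 in controls, a log2 difference of 0.33 ± 0.04 (SE; 1.25-fold, 95% interval 1.17 to 1.34; limma adjusted p = 0.00653). Dp5/Dp1 replicates 2 and 5 were left out of another fit, because their medial habenula markers were high. Itsn1 then had a difference of 0.32 and was no longer called (limma adjusted p = 0.0845), whereas Synj1 had one of 0.36 and stayed called (limma adjusted p = 0.0431). That fit has fewer arrays, and over all genes it called 21 instead of 41.

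**Figure D1:**
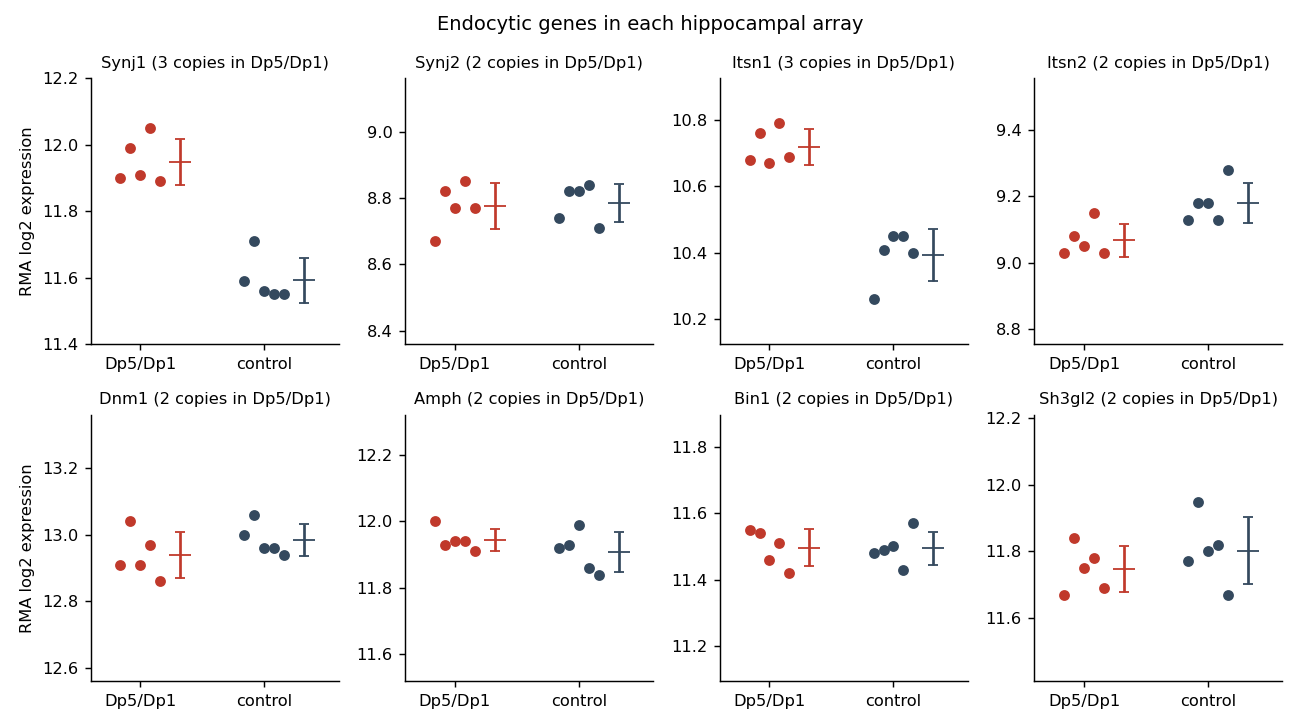
RMA log2 expression of the 8 measured endocytic genes in each array, Dp5/Dp1 left and control right in each panel; points are single arrays in the order of the replicate numbers, and each bar shows mean and SD of a group (n = 5). All axes span the same 0.8 log2 units at different levels, and only Synj1 and Itsn1 show groups that do not overlap.

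A difference in rise between the triplicated genes was not detected. The gap between them within an array, Synj1 minus Itsn1, was 1.23 ± 0.02 in Dp5/Dp1 and 1.20 ± 0.11 in controls, a change of 0.03 ± 0.05 (SE; 95% interval -0.09 to 0.15; exact two-sided permutation p = 0.54 over 252 assignments of the arrays, also 0.54 after adjustment over the 3 gaps tested here). The gap ran from 1.20 to 1.26 in the Dp5/Dp1 arrays and from 1.10 to 1.34 in the control arrays, so the range of the controls enclosed that of the Dp5/Dp1 arrays. The gap mixes a pair of probe sets, so its level has no meaning of its own and only its change between groups is read.

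Within the Dp5Yah interval these rises were not among the largest. Of 54 protein-coding genes tested there by position, 25 (46.3%) were called higher and 0 lower. Left out were 23 genes whose symbols name claudins or keratin-associated proteins, whereas predicted gene models stayed in. The predicted models between Grik1 and Tiam1 had differences of -0.03 to 0.06 and none was called, which lowers the share called and the median. The median difference of the 54 was 0.30 (quartiles 0.04 and 0.43), and the called genes ran from 0.27 to 0.66 with a median of 0.41. Synj1 ranked 23rd and Itsn1 26th by difference among the 54, and both lay below the median of the called genes. For 45 of the 54 the upper end of the 95% interval lay under the log2 of 1.5.

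Neighbouring genes were read as a check of the local dosage. On the proximal side of Synj1, 1.24 kb away, Cfap298, a gene of motile cilia, was at 9.30 ± 0.11 in Dp5/Dp1 and 8.85 ± 0.04 in controls (0.45 ± 0.05, limma adjusted p = 0.00205). On its distal side, 0.31 kb away, Paxbp1 was at 8.42, 8.57, 8.21, 8.76 and 8.31 in Dp5/Dp1 replicates 1 to 5, and at 8.11, 8.18, 8.19, 8.21 and 8.35 in control replicates 1 to 5. Its groups overlapped. Its difference of 0.24 ± 0.09 (95% interval 0.05 to 0.44) had an unadjusted p of 0.0188 by limma and was not called (adjusted p = 0.806), but FCROS passed it as higher. Cryzl1, which starts 0.104 kb from Itsn1 on the opposite strand, was at 10.35 ± 0.06 in Dp5/Dp1 and 9.97 ± 0.04 in controls (0.38 ± 0.04, limma adjusted p = 0.000442). The Itsn1 window shown therefore also spans the start of Cryzl1. Distal to Itsn1, at 4.63 kb, Atp5o, a subunit of mitochondrial ATP synthase, was at 11.15 ± 0.09 in Dp5/Dp1 and 10.67 ± 0.07 in controls (0.47 ± 0.05, limma adjusted p = 0.00107). These 4 neighbours are themselves triplicated. limma called 3 of them, all higher, against 0.201% of all genes and 46.3% of the 54 genes of the interval. FCROS passed 4, all higher, against 2.84% of all genes that FCROS passed as higher.

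**Figure D2:**
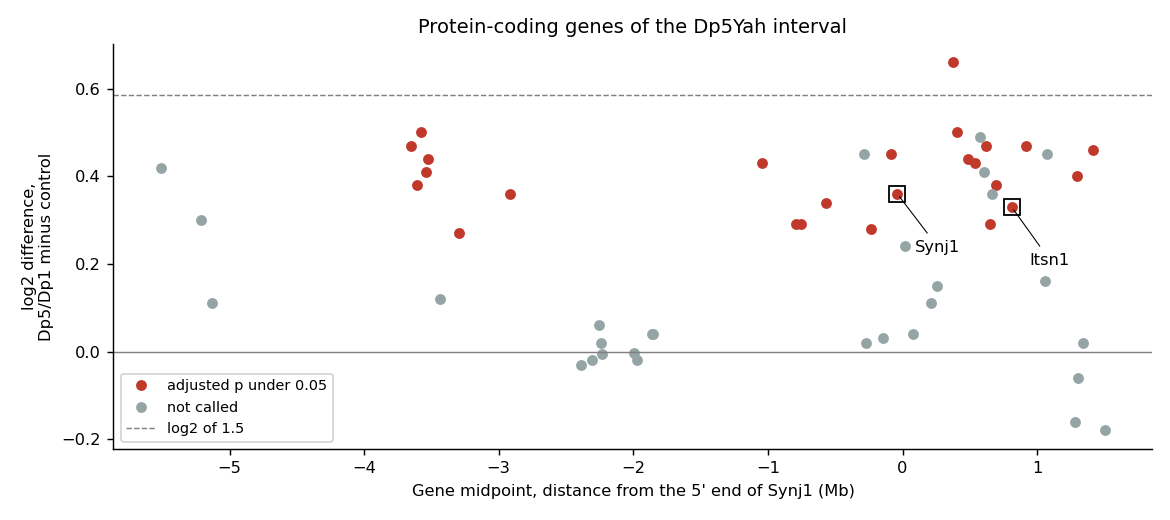
Log2 difference, Dp5/Dp1 minus control, of 54 protein-coding genes of the Dp5Yah interval against the distance of each gene's midpoint from the 5′ end of Synj1 (Mb); red points were called and grey points were not, and the dashed line is the log2 of 1.5. Synj1 at 0.36 and Itsn1 at 0.33 (squares) lie within the band of the called genes, 0.27 to 0.66.

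The phosphatase paralogue Synj2 (chr17:5941280-6055766) did not follow Synj1. It was at 8.67, 8.82, 8.77, 8.85 and 8.77 in Dp5/Dp1 replicates 1 to 5, and at 8.74, 8.82, 8.82, 8.84 and 8.71 in control replicates 1 to 5. These ranges overlapped almost wholly. The means were 8.78 ± 0.07 in Dp5/Dp1 and 8.79 ± 0.06 in controls, a difference of -0.01 ± 0.04 (95% interval -0.10 to 0.08; limma adjusted p = 0.975). The gap Synj1 minus Synj2 was 3.17 ± 0.05 in Dp5/Dp1 and 2.81 ± 0.08 in controls, a change of 0.37 ± 0.04 (SE; exact two-sided permutation p = 0.00794, the lowest value possible with 5 arrays against 5, and 0.0119 after adjustment over the 3 gaps). Every Dp5/Dp1 array (3.12 to 3.23) lay above every control (2.71 to 2.89).

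The scaffold paralogue Itsn2 (chr12:4592643-4713952) had a lower mean in Dp5/Dp1. It was at 9.03, 9.08, 9.05, 9.15 and 9.03 in Dp5/Dp1 replicates 1 to 5, and at 9.13, 9.18, 9.18, 9.13 and 9.28 in control replicates 1 to 5. Dp5/Dp1 replicate 4 alone reached into the range of the controls. The means were 9.07 ± 0.05 in Dp5/Dp1 and 9.18 ± 0.06 in controls, a difference of -0.11 ± 0.04 (95% interval -0.19 to -0.03). It had an unadjusted p of 0.0118 by limma but was not called (adjusted p = 0.746), and 6.06% of all genes had an unadjusted p under 0.05. FCROS did not pass it either, but only narrowly (f-value 0.0255, with a cut at 0.025). The gap Itsn1 minus Itsn2 was 1.65 ± 0.03 in Dp5/Dp1 and 1.22 ± 0.09 in controls, a change of 0.44 ± 0.04 (SE; exact two-sided permutation p = 0.00794, and 0.0119 after adjustment over the 3 gaps). All Dp5/Dp1 arrays (1.61 to 1.69) lay above all controls (1.12 to 1.32).

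**Figure D3:**
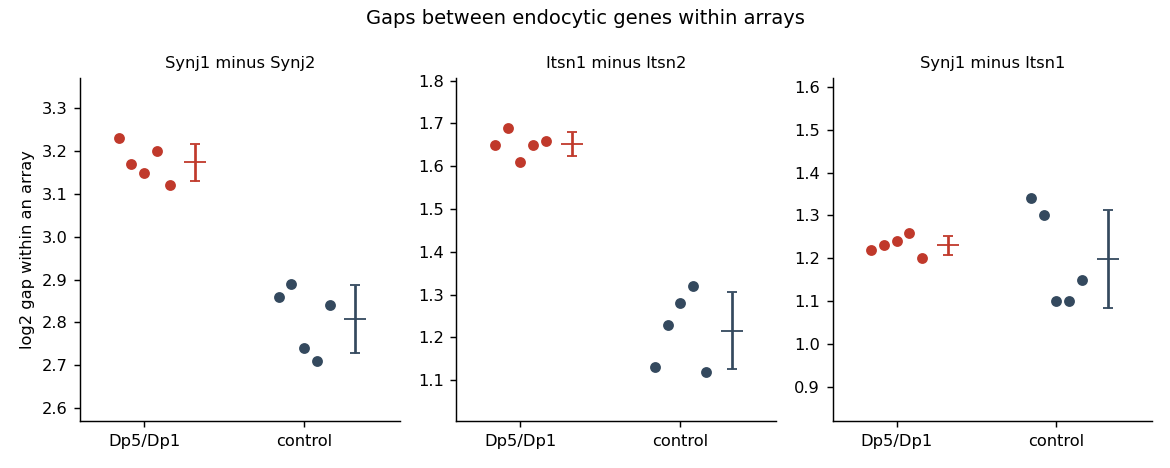
Differences between the log2 values of pairs of endocytic genes within each array, Dp5/Dp1 left and control right; points are arrays and each bar shows mean and SD of a group (n = 5), with all axes spanning 0.8 log2 units. The gaps of Synj1 to Synj2 and of Itsn1 to Itsn2 separate the groups, with changes of 0.37 and 0.44, whereas that of Synj1 to Itsn1 does not.

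The enzyme of fission gave no call. Dnm1 (chr2:32308471-32353349), the neuronal dynamin, was at 12.91, 13.04, 12.91, 12.97 and 12.86 in Dp5/Dp1 replicates 1 to 5, and at 13.00, 13.06, 12.96, 12.96 and 12.94 in control replicates 1 to 5. Replicate 2 was the highest array of both groups, and the groups overlapped. The means were 12.94 ± 0.07 in Dp5/Dp1 and 12.99 ± 0.05 in controls (difference -0.05 ± 0.04, 95% interval -0.13 to 0.04; limma adjusted p = 0.875).

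The BAR domain genes gave no call either. Amph (chr13:18948142-19154032), which links clathrin and dynamin at the neck, was at 12.00, 11.93, 11.94, 11.94 and 11.91 in Dp5/Dp1 replicates 1 to 5, and at 11.92, 11.93, 11.99, 11.86 and 11.84 in control replicates 1 to 5. Its difference was 0.04 ± 0.03 (95% interval -0.04 to 0.11; limma adjusted p = 0.894), the only 2-copy gene of the set with a higher mean in Dp5/Dp1. Sh3gl2 (chr4:85205456-85389380), which recruits synaptojanin, was at 11.67, 11.84, 11.75, 11.78 and 11.69 in Dp5/Dp1 replicates 1 to 5, and at 11.77, 11.95, 11.80, 11.82 and 11.67 in control replicates 1 to 5. Its difference of -0.06 ± 0.05 had the widest interval of the set (-0.17 to 0.05; limma adjusted p = 0.887).

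Bin1, on chromosome 18, is also made by oligodendrocytes and muscle. It was at 11.55, 11.54, 11.46, 11.51 and 11.42 in Dp5/Dp1 replicates 1 to 5, and at 11.48, 11.49, 11.50, 11.43 and 11.57 in control replicates 1 to 5. The means were 11.49 ± 0.06 in Dp5/Dp1 and 11.50 ± 0.05 in controls, a difference of -0.0018 ± 0.04 (95% interval -0.08 to 0.08; limma adjusted p = 0.995) with no stable sign. In all 6 of the 2-copy genes measured the 95% interval lay within 0.3 of 0 on the log2 scale, that is, short of the differences of Synj1 and Itsn1. The spread between arrays of a group was small for the whole set, with an SD of 0.05 (Amph) to 0.08 (Sh3gl2) and a median of 0.06, against a median of 0.07 over all genes.

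**Figure D4:**
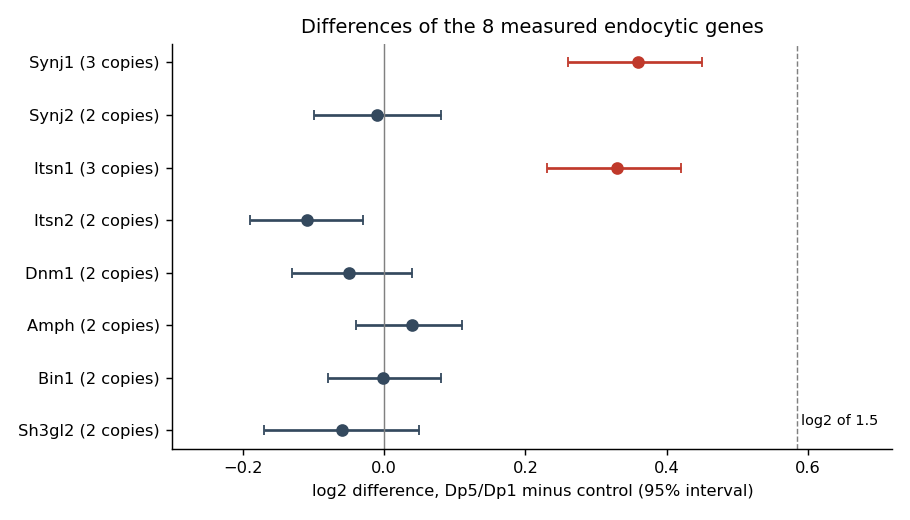
Log2 difference, Dp5/Dp1 minus control, of each measured endocytic gene with its 95% interval from limma (5 arrays per group); red marks genes with 3 copies in Dp5/Dp1, blue those with 2, and the dashed line is the log2 of 1.5. Synj1 (0.26 to 0.45) and Itsn1 (0.23 to 0.42) lie between 0 and that line, and of the 2-copy genes the interval of Itsn2 (-0.19 to -0.03) alone does not cross 0.

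The rest of the endocytic machinery, all in 2 copies, was followed through 75 genes in 7 lists by role, of which 73 were tested. limma called 0 of the 73, against 0.206% of all genes, a share too low to expect a call in a list of this size. An unadjusted p under 0.05 was found for 0 of the 73, against 6.06% of all genes, and groups that did not overlap for 0, against 1.08%. FCROS passed 1, Fnbp1l, as lower, against 5.06% of all genes passed in either direction. The means were higher in Dp5/Dp1 for 30 and lower for 43, with a median difference of -0.01 against 0.0019 over all genes, and the 73 differences ran from -0.15 (Fnbp1l) to 0.07 (Cltb). For all 73 the 95% interval lay within 0.3 of 0.

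In the coat and its adaptors, 22 genes that include clathrin light and heavy chains and the AP-2 complex, 11 means were higher and 11 lower. The lowest unadjusted p belonged to Eps15, an adaptor that binds intersectin (-0.06 ± 0.04, limma adjusted p = 0.835), and Hip1, a link from clathrin to actin (-0.13 ± 0.07, limma adjusted p = 0.841). Of 15 other genes of membrane bending and fission, 12 had a lower mean. Fnbp1l, an F-BAR protein that works with CDC42, was at 8.68 ± 0.11 in Dp5/Dp1 and 8.83 ± 0.14 in controls (-0.15 ± 0.07, limma adjusted p = 0.824), and Snx33, a sorting nexin with a BAR domain, had a difference of -0.09 ± 0.04 (limma adjusted p = 0.831). limma called neither, and FCROS passed Fnbp1l only.

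The uncoating factors Gak, a cyclin G-associated kinase with an auxilin domain, and Hspa8, the chaperone that takes clathrin apart, had differences of -0.05 ± 0.03 and -0.03 ± 0.03. Of 10 phosphoinositide enzymes 7 had a lower mean, led by the 5-phosphatase Ocrl (-0.09 ± 0.05, limma adjusted p = 0.832) and the kinase Pik3c2a (-0.11 ± 0.06, limma adjusted p = 0.832). Wasl (0.05 ± 0.05), which drives actin branching downstream of CDC42, and Abi1 (-0.02 ± 0.04), a subunit of the WAVE complex, had the lowest unadjusted p of the 5 actin genes. Among 6 genes that set the phosphorylation of endocytic proteins, the kinase Gsk3b and the calcineurin subunit Ppp3ca had the lowest unadjusted p, both at -0.03 ± 0.03. Of 12 vesicle membrane proteins, 6 means were higher and 6 lower, with Slc32a1, the vesicular GABA transporter (0.07 ± 0.05), and Syn2, a synapsin (-0.05 ± 0.04), at the lowest unadjusted p.

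**Figure D5:**
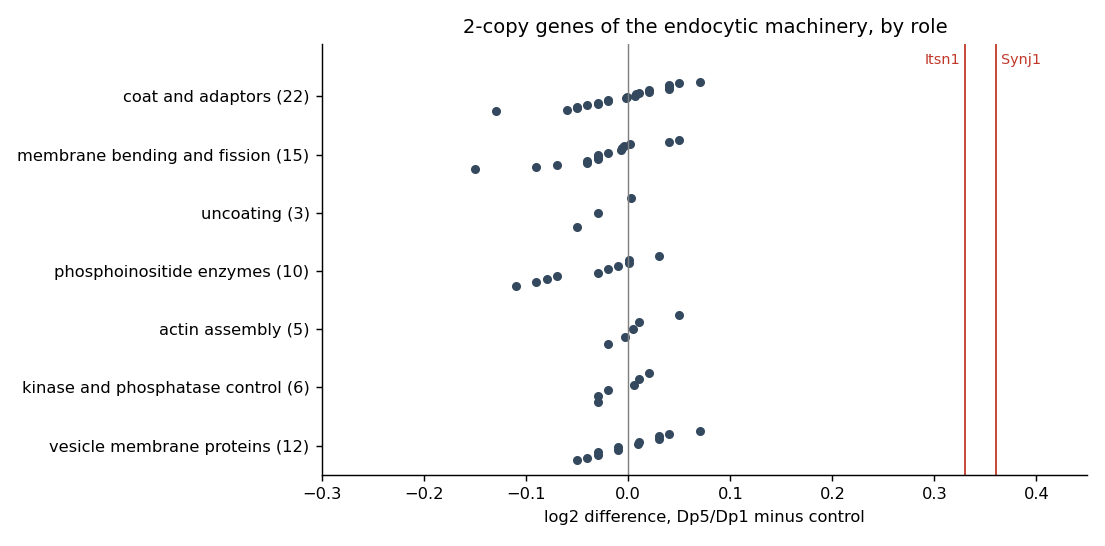
Log2 difference, Dp5/Dp1 minus control, of 73 further genes of the endocytic machinery in 7 roles, with the number of genes of each role in brackets; each point is a gene, spread vertically for clarity, and red lines give Synj1 (0.36) and Itsn1 (0.33). All 73 points lie between -0.15 and 0.07.

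A pair of triplicated genes acts on these proteins. Dyrk1a, a kinase that phosphorylates dynamin, amphiphysin and synaptojanin, is in the Dp1Rhr duplication and was at 11.89 to 12.00 in Dp5/Dp1 arrays, against 11.56 to 11.73 in controls (0.30 ± 0.04, limma adjusted p = 0.00344). Rcan1, an inhibitor of calcineurin, the phosphatase that removes phosphate from the same proteins, is in Dp5Yah and was at 9.63 to 9.69 in Dp5/Dp1 arrays, against 9.10 to 9.31 in controls (0.46 ± 0.04, limma adjusted p = 0.000186). Both rose, with groups that did not overlap. All 5 arrays grouped as Dp5/Dp1, whose titles name Dp5Yah, were thus above all 5 controls for a gene of each duplication.

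Markers of the dissected tissue were read beside these results. All 10 markers of hippocampal excitatory neurons were measured, with mean levels of 9.01 to 13.51, and 0 were called by limma. Of these, 1 was lower at an unadjusted p under 0.05 (2.67% of all genes) and 1 was passed by FCROS as lower (2.21% of all genes). The 7 neuronal markers averaged 12.14 to 12.21 in Dp5/Dp1 arrays and 12.16 to 12.23 in control arrays, and the 8 oligodendrocyte markers 11.28 to 11.53 in Dp5/Dp1 arrays and 11.30 to 11.47 in control arrays. FCROS passed 1 of the 8 oligodendrocyte markers as lower (2.21% of all genes), and limma called 0. The 7 endothelial markers averaged 8.71 to 8.84 in Dp5/Dp1 arrays and 8.59 to 8.80 in control arrays, with 3 higher at an unadjusted p under 0.05 and 0 called by limma (4 passed by FCROS as higher). Over all genes, 3.39% were higher at that p and 2.84% passed FCROS as higher. The 7 astrocyte markers averaged 11.17 to 11.25 in Dp5/Dp1 arrays and 11.19 to 11.29 in control arrays, with a median difference of -0.07. Of these, 0 were called by limma, 2 were lower at an unadjusted p under 0.05 (2.67% of all genes), 1 had lower groups without overlap (0.321% of all genes) and 1 was passed by FCROS as lower (2.21% of all genes). The 7 microglia markers averaged 8.78 to 9.02 in Dp5/Dp1 arrays and 8.85 to 8.96 in control arrays, with 0 at an unadjusted p under 0.05 and 0 passed by limma or FCROS. The part of endothelial cells and astrocytes in the results was not tested. Tissues next to the hippocampus varied more. The 9 choroid plexus markers averaged 7.25 to 9.07 in Dp5/Dp1 arrays and 7.13 to 9.44 in control arrays, all 9 with a lower mean in Dp5/Dp1, and the 8 medial habenula markers 7.33 to 8.48 in Dp5/Dp1 arrays, with replicates 2 and 5 at the top, and 7.27 to 7.69 in control arrays. Of the 8 habenula markers 7 had a higher mean in Dp5/Dp1 (median difference 0.30). The 6 thalamus markers averaged 7.98 to 8.39 in Dp5/Dp1 arrays and 8.22 to 8.73 in control arrays, all 6 with a lower mean in Dp5/Dp1 (median difference -0.19). limma called 0 genes of these 3 lists. An unadjusted p under 0.05 was found for 0 choroid plexus, 1 habenula (higher) and 1 thalamus (lower) marker. FCROS passed 3 habenula markers as higher, against 2.84% of all genes. It passed 1 choroid plexus and 1 thalamus marker as lower, against 2.21% of all genes. In a fit that included the choroid plexus and the habenula marker levels of each array, Synj1 had a difference of 0.34 (limma adjusted p = 0.0209) and Itsn1 one of 0.30 (limma adjusted p = 0.0464). The part of thalamus RNA in these results was not tested.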

How the data were processed

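Hippocampal RNA of 5 Dp5/Dp1 and 5 control mice was measured on 1 array each. The authors made RMA log2 values (background correction, quantile normalization, 1 summary value for each probe set) and deposited these for 35556 probe sets. RMA, limma and mm10 stand in the submitters' processing notes, and the versions of RMA and limma are not given in the sources used here. RMA compresses differences of dim probe sets. The quantile step evens the arrays, whose medians lay between 6.73 and 6.80, and no pair of arrays was identical. The number of arrays limits the precision. The labels call the arrays biological replicates.

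Probe sets with exactly 1 symbol in the platform annotation (21789, with 1621 holding several and 12146 unnamed here) were renamed through Entrez ID with the RefSeq table of GRCm38.p6, the assembly of mm10, in which 21698 were found. The probe set with the highest mean stood for a gene. Each measured member had 1 probe set.

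Groups came from the condition label. limma 3.58.1 in R 4.3.3 (lmFit, eBayes, two-sided, no covariate) was fitted to all 19938 genes with Benjamini-Hochberg adjustment. Gaps between members were compared with exact permutation tests (SciPy 1.17.1). FCROS was rewritten from its description (25 array pairs, trim 0.25, tails 0.025) so its counts need not equal those of the original software. Both limma and FCROS steps were tested on simulated data. The shifts simulated for FCROS were far larger than the differences of the members, so that test says nothing of its power for those. Alternatives covered dim genes, normalization, centring, probe sets, variance model, array weights, a replicate block, left-out arrays, marker covariates and an adjusted p under 0.1.

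The members and lists were chosen with earlier results of these data known. Named genes were the members, the 2 genes of each role list with the lowest p and any called, the nearest genes beside Synj1 and Itsn1, Dyrk1a, Rcan1 and the genes most alike to Synj1 and Itsn1, without predicted models. Cltb was named after its value was seen.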

Additional observations from a re-analysis of the deposited data

Results flagged for a closer look

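In 56 groups of 5 arrays (28 named genes in both groups), 3 held an array far from the other 4, where chance flags about 1 group in 20. Synj1 in control replicate 2 was at 11.71, with the next control at 11.59 and the lowest at 11.55. Without this array the Synj1 difference was 0.39 (limma adjusted p = 0.0021). Itsn1 in control replicate 1 was at 10.26, with the next control at 10.40 and the highest at 10.45. Without it the Itsn1 difference was 0.29 (limma adjusted p = 0.00729). Slc32a1, the vesicular GABA transporter, in control replicate 4 was at 8.52, with the next control at 8.40 and the lowest at 8.35.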

How the results depend on the processing

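Synj1 kept its direction and its call under all 22 alternatives, and Itsn1 under 21. Not all of these could move a member's difference. Each member had 1 probe set and none was dim, so the alternatives for probe sets and dim genes left it unchanged. With each array left out in turn (10 fits), Synj1 ran from 0.33 to 0.39 (limma adjusted p 0.0021 to 0.0175) and Itsn1 from 0.29 to 0.34 (0.00729 to 0.0282). Without Dp5/Dp1 replicates 2 and 5, which leaves fewer arrays, Itsn1 was at 0.32 and not called, so that 1 member was called instead of 2, and 21 genes were called over all genes instead of 41. FCROS passed 1008 genes in all and 1 of the endocytosis lists. With the replicate number as a replicate block 26 genes were called over all genes, Synj1 at 0.36 (limma adjusted p = 0.028) and Itsn1 at 0.33 (0.0359) among them. Paired by that number, the gap Synj1 minus Synj2 was 0.37 and Itsn1 minus Itsn2 0.44, both with an exact sign-flip p of 0.0625, the smallest that 5 pairs allow. The labels do not say whether these numbers pair the arrays. Deviations from the group means, compared between arrays of the same number, correlated at -0.353 to 0.292, which cannot settle whether the arrays were paired. Signs of members near 0 changed. Left-out arrays put Synj2 between -0.03 and 0.02 and Bin1 between -0.02 and 0.02, and Bin1 was at 0.0012 after renewed quantile normalization, 0.01 without Dp5/Dp1 replicates 2 and 5 and 0.0016 by FCROS, none of them called. Itsn2, Dnm1, Amph and Sh3gl2 kept their sign and stayed uncalled under all 22 alternatives each.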

Other observations

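The genes most like Synj1 and Itsn1 were sought among all tested genes, as a description over 10 arrays that share 2 groups. By Pearson correlation of the values, those most like Synj1 were Dscam (0.976), a cell adhesion gene of the Dp1Rhr duplication, Cryzl1 (0.967) and N6amt1 (0.961), and those most like Itsn1 were Scaf4 (0.978), Rcan1 (0.954) and Dnajc28 (0.951). All 6 lie in the duplications on chromosome 16, and Synj1 with Itsn1 reached 0.917. Genes raised in the same group correlate this way from the group difference alone. When each array was read as its deviation from its group mean, Synj1 and Itsn1 correlated at 0.285 only. Synj1 was then most like Tenm2 (0.976), Hecw2 (0.973) and Syt1 (0.971), the calcium sensor of vesicle fusion, and Itsn1 most like Hrg (0.965), Dlx1 (0.958) and Galnt7 (0.957). These 6 lie outside the duplications and were not called. They were picked as the highest values of a search over the tested genes, so their height comes in part from the search.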
